A study of Homo sapiens with 12 samples.

Results

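The plasminogen activation system was followed through 7 genes, taken by name from the 58830 entries of the normalized count table: the activators PLAU and PLAT, the receptor PLAUR, the serpins SERPINE2 and SERPINB2, and the annexin A2 complex genes ANXA2 and S100A10. Of these, 6 passed the filter on low values (10 normalized counts or more in 3 or more of 12 libraries), as did 20456 genes in all, and SERPINB2 did not. The cells were A549, an epithelial line from a human lung adenocarcinoma, sampled for RNA-seq at day 5. The 4 groups of 3 libraries were the edited line (labelled Sm22mut, a knockout of the miR22/SNAI1 target site) with TGFβ at 10 ng/mL, the edited line untreated, wild type A549 with the same dose, and wild type A549 untreated. There was 1 edited derivative, so effects of the edit and of deriving that line cannot be told apart, and p-values measure the spread between libraries that the labels call biological repeats.

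Plasminogen is a circulating zymogen that is cut to plasmin, a protease that degrades fibrin and other matrix proteins. Urokinase and tissue plasminogen activator make that cut. Serpins block the activators, cell-surface urokinase receptor concentrates urokinase, and the annexin A2 and S100A10 heterotetramer binds plasminogen and tissue activator at the plasma membrane. In carcinoma cells the system is best known for its part in pericellular proteolysis and invasion.

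Recovered reads ran from 84210775 to 111141708 per library, so counting error is small for every member but SERPINB2 and untreated PLAT. All 5 epithelial markers of the labelled cell type were detected, with a summed normalized count of 406708 to 469594 in treated edited, 556834 to 574504 in untreated edited, 391165 to 508317 in treated wild type and 534691 to 556900 in untreated wild type libraries. That sum mainly reflects 2 keratins: in treated edited libraries KRT8 averaged 275324 and KRT18 154446, against 10285 for CDH1, 1560 for EPCAM and 55.9 for KRT19. The alveolar type 2 surfactant genes SFTPC, SFTPB, SFTPA1 and SFTPA2 averaged under 10 in every group. SNAI1, the repressor whose target site was edited, had 1313 ± 96.5 normalized counts in treated edited, 481 ± 43.4 in untreated edited, 875 ± 97.2 in treated wild type and 496 ± 88.6 in untreated wild type libraries (SD, n = 3 each), which does not check the genotype, since an edited site need not alter the transcript's read count.

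The stretches of 250 bases before the annotated start of 4 members, from RefSeq (GRCh38.p14), are shown because they hold a match to a motif searched for. They were picked after the search, and SERPINE2, which held no match, is not shown. SERPINB2, which did not pass the filter, is not shown either, although it too held matches before its start. Capitals mark matches to a CAGGTG E-box, the sequence SNAI1 is known to bind, to the AP-1 motif TGANTCA, or to the SMAD motif CAGACA, on either strand. PLAU has 2 listed starts, and the downstream one is shown. The windows lie at chr10:73910882-73911131 on the plus strand for PLAU, and on the minus strand at chr19:43670170-43670419 for PLAUR, chr15:60397987-60398236 for ANXA2 and chr1:151993860-151994109 for S100A10.
PLAU: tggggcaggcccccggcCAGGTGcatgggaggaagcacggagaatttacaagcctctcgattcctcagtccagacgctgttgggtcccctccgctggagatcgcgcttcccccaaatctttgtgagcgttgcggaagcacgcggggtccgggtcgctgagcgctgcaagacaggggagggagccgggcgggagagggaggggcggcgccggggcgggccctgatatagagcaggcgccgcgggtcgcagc
PLAUR: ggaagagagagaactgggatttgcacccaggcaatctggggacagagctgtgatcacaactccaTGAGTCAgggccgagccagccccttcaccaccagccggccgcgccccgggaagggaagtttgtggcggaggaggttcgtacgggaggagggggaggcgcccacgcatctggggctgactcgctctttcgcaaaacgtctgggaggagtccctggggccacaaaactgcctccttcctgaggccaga
ANXA2: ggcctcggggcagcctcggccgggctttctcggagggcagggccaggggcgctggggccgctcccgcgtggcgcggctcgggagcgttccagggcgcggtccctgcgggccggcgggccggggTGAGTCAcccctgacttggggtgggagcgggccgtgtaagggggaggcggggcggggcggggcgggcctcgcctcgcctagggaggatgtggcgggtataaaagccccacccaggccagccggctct
S100A10: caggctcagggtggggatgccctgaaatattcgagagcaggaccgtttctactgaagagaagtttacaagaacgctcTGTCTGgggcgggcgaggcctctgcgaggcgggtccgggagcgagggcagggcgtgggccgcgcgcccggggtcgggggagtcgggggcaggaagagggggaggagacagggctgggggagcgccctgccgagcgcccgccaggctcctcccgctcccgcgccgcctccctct

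The search covered 250 bases before and 50 after each start, in 8 windows of 6 members, PLAT not among them. In PLAU the E-box lay 233 bases before the downstream start, and a second match, on the opposite strand, lay in the first 50 transcribed bases. PLAUR and ANXA2 held the same AP-1 match, TGAGTCA, at 186 and 127 bases before their starts. S100A10 held a CAGACA match on the opposite strand, 173 bases before its start, and the upstream PLAU window held another after its start. SERPINB2 held an AP-1 match and 2 CAGACA matches, and neither SERPINE2 window held any of these motifs. The palindromic SMAD motif GTCTAGAC was in none of the 8 windows, and no match overlapped another. Of 35116 such windows over all genes, 20.59% held CAGGTG, 7.709% TGANTCA, 16.88% CAGACA and 0.2022% GTCTAGAC, so a match describes letters and not binding.

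TGFβ raised all 6 tested members in both lines, from 1.66-fold for ANXA2 to 69.1-fold for SERPINE2 in wild type. The share of all tested genes called at an adjusted p of 0.05 was 62.8% in the edited line (32.1% higher) and 61.7% in wild type (30.8% higher), so being called is common in these comparisons and the sizes carry more than the counts. Treated and untreated libraries of a line did not overlap for any of the 6, and TGFβ-treated libraries lay wholly above untreated ones for 35.0% of all tested genes in the edited line and 32.2% in wild type. The median log2 fold change of the 6 members was 1.98 in the edited line and 2.47 in wild type, against 0.03 and 0.02 over all tested genes. The edited line exceeded wild type in both conditions for PLAU, PLAUR and SERPINE2. In these bulk samples, fewer cells of a kind and less RNA per cell cannot be told apart.

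**Figure D1:**
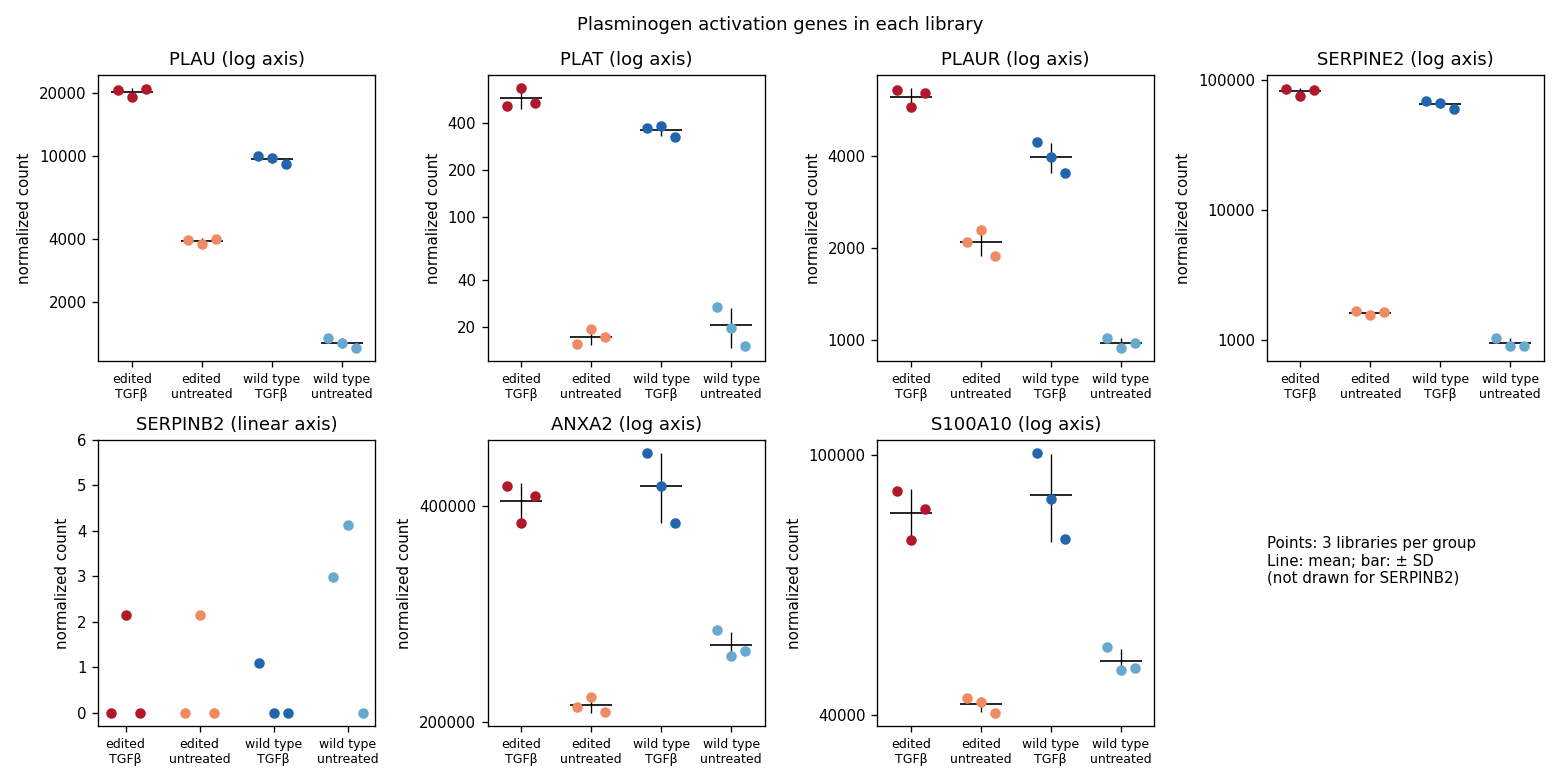
Normalized counts of the 7 members in each of the 12 libraries, by group, on log axes except for SERPINB2 (linear axis). Points are libraries, horizontal lines means and vertical bars ± SD (n = 3 each, not drawn for SERPINB2). PLAU, PLAUR and SERPINE2 keep the same order of the 4 groups, with treated edited libraries on top and untreated wild type at the bottom.

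PLAU (ENSG00000122861.15, GRCh38 chromosome 10, 73909177 to 73917497, plus strand) encodes urokinase, the activator that acts at the cell surface. It had 20741, 19224 and 20993 normalized counts in treated edited libraries, 3989.6, 3786 and 4006 in untreated edited libraries, 10058, 9766 and 9234 in treated wild type and 1355, 1273 and 1207 in untreated wild type. No 2 groups overlapped, and every untreated edited library lay above every untreated wild type one. With TGFβ, PLAU rose by a log2 fold change of 2.37 ± 0.06 in the edited line (± SE, adjusted p = 1.1e-14) and 2.92 ± 0.06 in wild type (adjusted p = 1.09e-15). Unless another tool or an alternative is named, adjusted p-values come from limma's moderated test with Benjamini-Hochberg adjustment over the 20456 tested genes. The edited line was higher by 1.62 ± 0.06 untreated (3.07-fold, adjusted p = 1.54e-10) and by 1.07 ± 0.06 with TGFβ (2.10-fold, adjusted p = 3.4e-08). C10orf55 overlaps PLAU on the other strand, and its value was 0.157 to 0.171% of PLAU's in treated edited, 0.170 to 0.510% in untreated edited, 0.153 to 0.373% in treated wild type and 0.356 to 0.442% in untreated wild type libraries.

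PLAT (ENSG00000104368.17, GRCh38 chromosome 8, 42175233 to 42207724, minus strand) encodes tissue plasminogen activator, which cuts plasminogen chiefly where it is bound to fibrin. It had 511, 667 and 537 normalized counts in treated edited libraries, 15.5, 19.3 and 17.2 in untreated edited libraries, 370.4, 384 and 325 in treated wild type and 26.9, 19.8 and 15.04 in untreated wild type. PLAT was thus near the floor of the filter without TGFβ, at 14 to 27 reads per library, and the untreated groups overlapped. It rose with TGFβ by 4.96 ± 0.22 on the log2 scale in the edited line (adjusted p = 7.56e-12) and by 4.10 ± 0.22 in wild type (adjusted p = 9.49e-11), changes that the added pseudocount of 1 understates. The treated groups did not overlap, and the treated edited libraries averaged 571 ± 83.5 against 360 ± 30.6 in treated wild type (SD, n = 3 each). That difference, 0.66 ± 0.22 on the log2 scale (95% interval 0.20 to 1.12), missed the threshold in limma (adjusted p = 0.0614) but passed it in edgeR's quasi-likelihood test (adjusted p = 0.00665) and in DESeq2 (adjusted p = 0.000251), both run on the recovered reads. Over all 25 alternatives its adjusted p ran from 0.000251 to 0.199, and 7 passed. Without TGFβ the difference between the lines was -0.20 ± 0.22 (95% interval -0.67 to 0.26, adjusted p = 0.517).

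PLAUR (ENSG00000011422.11, GRCh38 chromosome 19, 43646095 to 43670547, minus strand) encodes the urokinase receptor, a GPI-anchored protein. It had 6568, 5764 and 6415 normalized counts in treated edited libraries, 2094, 2298 and 1882 in untreated edited libraries, 4425, 3969 and 3531 in treated wild type and 1021, 942 and 979 in untreated wild type. As for PLAU, no 2 groups overlapped and the order of the groups was the same. PLAUR rose with TGFβ by 1.58 ± 0.09 in the edited line (adjusted p = 1.82e-10) and 2.01 ± 0.09 in wild type (adjusted p = 9.73e-12), both on the log2 scale. It was higher in the edited line by 1.09 ± 0.09 untreated (adjusted p = 2.81e-07) and by 0.66 ± 0.09 with TGFβ (adjusted p = 0.000191).

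SERPINE2 (ENSG00000135919.12, GRCh38 chromosome 2, 223975112 to 224039319, minus strand) encodes protease nexin-1, a secreted serpin that inhibits thrombin, urokinase and tissue activator. It had 85885, 76034 and 85066 normalized counts in treated edited libraries, 1664, 1566 and 1658 in untreated edited libraries, 69017, 67564 and 60219 in treated wild type and 1047, 905 and 896 in untreated wild type. SERPINE2 had the largest log2 response of the 6 members, 5.66 ± 0.07 in the edited line (50.4-fold, adjusted p = 4.96e-18) and 6.11 ± 0.07 in wild type (69.1-fold, adjusted p = 1.33e-18). It was higher in the edited line by 0.78 ± 0.07 untreated (adjusted p = 1.09e-06). With TGFβ it was higher by 0.33 ± 0.07 (1.26-fold, adjusted p = 0.00855), a call lost when the treated groups were fitted alone (adjusted p = 0.0644). Over all alternatives the adjusted p ran from 0.000433 to 0.0644.

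SERPINB2 (ENSG00000197632.8, GRCh38 chromosome 18, 63871692 to 63903890, plus strand) encodes plasminogen activator inhibitor type 2, a largely intracellular serpin. It was at or near 0 throughout: 0, 2 and 0 reads in treated edited libraries, 0, 2 and 0 in untreated edited libraries, 1, 0 and 0 in treated wild type and 3, 5 and 0 in untreated wild type. The 13 reads in all support no fold change. SERPINB10 overlaps SERPINB2 on the same strand, RN7SL368P overlaps PLAUR on the same strand, and AC087385.1 overlaps ANXA2 on the other strand.

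ANXA2 (ENSG00000182718.16, GRCh38 chromosome 15, 60347134 to 60402883, minus strand) encodes annexin A2, the membrane-binding subunit of the plasminogen-binding complex. It had 426269, 378213 and 411982 normalized counts in treated edited libraries, 209922, 216808 and 206240 in untreated edited libraries, 474117, 425545 and 378722 in treated wild type and 268310, 247047 and 251318 in untreated wild type. The treated groups overlapped, whereas every untreated edited library lay below every untreated wild type one. ANXA2 rose with TGFβ by 0.94 ± 0.09 in the edited line (adjusted p = 9.25e-08) and 0.73 ± 0.09 in wild type (adjusted p = 1.93e-06), on the log2 scale. It fell by 0.28 ± 0.09 in the untreated edited line relative to untreated wild type (adjusted p = 0.0247), a call that did not survive leaving out replicate 1 or 3 of untreated wild type or any untreated edited library (adjusted p = 0.0501 to 0.0957). Over all alternatives the adjusted p ran from 0.000128 to 0.0957. The processed pseudogene ANXA2P2, 98.43% identical to ANXA2 over 1020 bases, can share its reads, and its value was 0.404 to 0.522% of ANXA2's over the 12 libraries.

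S100A10 (ENSG00000197747.8, GRCh38 chromosome 1, 151982915 to 151994390, minus strand) encodes p11, the subunit of that complex whose C-terminal lysine binds plasminogen. It had 88134, 73991 and 82604 normalized counts in treated edited libraries, 42379, 41902 and 40231 in untreated edited libraries, 100777, 85567 and 74305 in treated wild type and 50835, 46874 and 47251 in untreated wild type. Its groups lay as those of ANXA2 did. S100A10 rose with TGFβ by 0.97 ± 0.09 in the edited line (adjusted p = 1.24e-07) and 0.84 ± 0.09 in wild type (adjusted p = 7.99e-07). Untreated, the edited line differed from wild type by -0.22 ± 0.09 (adjusted p = 0.0858), which did not pass in limma over all groups although the libraries did not overlap. It passed when the untreated groups were fitted alone (adjusted p = 0.00969). Of 25 alternatives 6 passed, with adjusted p-values between 0.00969 and 0.239 over all of them.

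**Figure D2:**
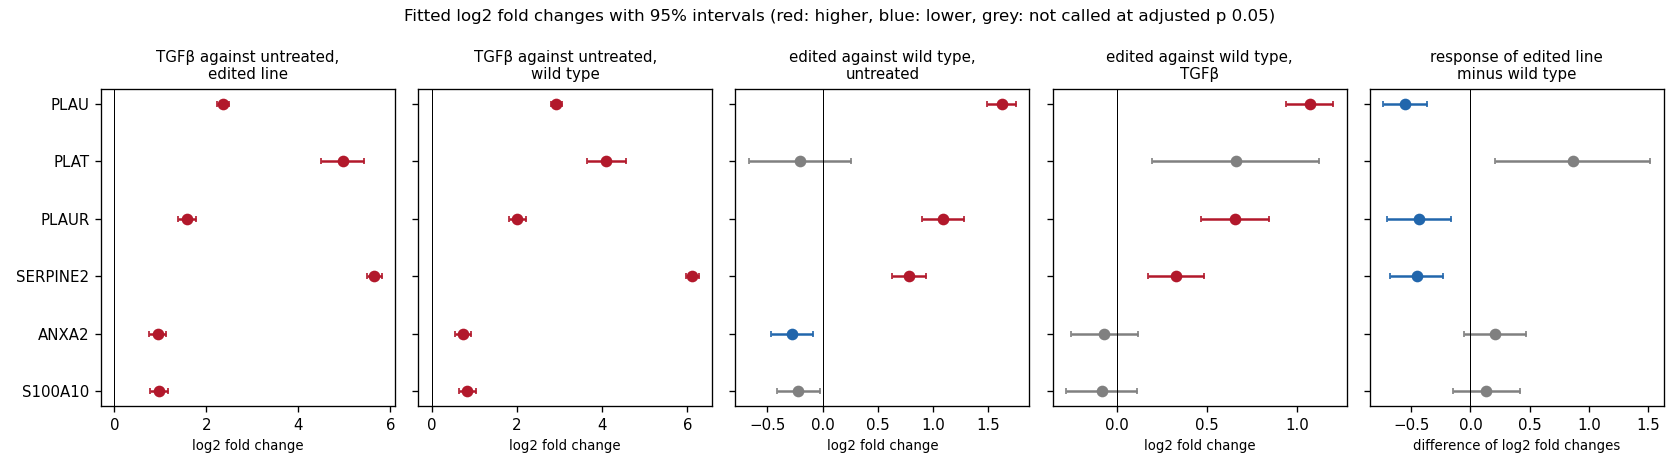
Fitted log2 fold changes of the 6 tested members with 95% intervals, for TGFβ against untreated in the edited line and in wild type, the edited line against wild type untreated and with TGFβ, and the difference between the responses (edited minus wild type). Red and blue mark calls above and below 0 at an adjusted p of 0.05, and grey marks none. PLAU, PLAUR and SERPINE2 are higher in the edited line in both conditions and have responses below 0 in the last panel.

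Between the lines, 4 of the 6 members were called untreated (3 higher in the edited line, 1 lower), against 31.8% of all tested genes (14.3% higher, 17.5% lower). Untreated libraries of the lines did not overlap for 5 of 6, all but PLAT, against 48.8% of all genes. With TGFβ, 3 of 6 were called, all higher in the edited line, against 11.7% of all genes (7.38% higher), and libraries did not overlap for 4 of 6, PLAT included, against 26.6% of all genes. PLAU, PLAUR and SERPINE2 were called higher in both conditions, as were 3.27% of all tested genes. Across all genes the split with TGFβ was 1510 higher and 884 lower. It depended on scaling and became 1256 and 1355 with equal library totals and 1367 and 1345 with quantile normalization, while PLAU, PLAUR and SERPINE2 were called higher under either scaling. No difference with TGFβ was called for ANXA2 (-0.07 ± 0.09, 95% interval -0.25 to 0.12, adjusted p = 0.694) or S100A10 (-0.08 ± 0.09, 95% interval -0.28 to 0.11, adjusted p = 0.635). The sign of either value turned without replicate 1 of treated wild type (to 0.01 for ANXA2 and 0.03 for S100A10). That library had the highest value of its group for PLAU, PLAUR, SERPINE2, ANXA2 and S100A10 and, at 3.79%, the highest share of mitochondrial counts of the 12. The part of that share in these values was not tested.

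The log2 response to TGFβ differed between the lines for 3 of 6 members, all with a smaller response in the edited line, against 16.6% of all tested genes called (6.02% with a smaller or more negative response). The difference was -0.55 ± 0.09 for PLAU (adjusted p = 0.000496), -0.45 ± 0.10 for SERPINE2 (adjusted p = 0.00719) and -0.43 ± 0.13 for PLAUR (adjusted p = 0.0281). The PLAUR call was lost without any of 7 single libraries: replicates 2 or 3 of the treated edited group, 1 or 2 of the untreated edited group, 2 of treated wild type, and 2 or 3 of untreated wild type (adjusted p = 0.0507 to 0.0814), and the lowest adjusted p of any alternative was 0.00443. PLAT ran the other way, at 0.86 ± 0.31 (95% interval 0.21 to 1.52), and missed the threshold in limma (adjusted p = 0.0676). It passed in DESeq2 (adjusted p = 0.0316) and in limma with a pseudocount of 10 (adjusted p = 0.0395). Only 3 of 24 alternatives passed, with adjusted p-values between 0.0249 and 0.154 over all of them. For ANXA2 the difference of 0.21 ± 0.12 was not called (adjusted p = 0.285), but it was after quantile normalization (0.34, adjusted p = 0.00485, the lowest of any alternative, the highest being 0.45). For S100A10 it was 0.14 ± 0.13 (adjusted p = 0.540).

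On the linear scale the order of the lines was the reverse for these 3 genes. PLAU gained 16392 ± 557 normalized counts with TGFβ in the edited line and 8408 ± 245 in wild type (difference of means ± SE). PLAUR gained 4158 ± 274 in the edited line and 2995 ± 259 in wild type. SERPINE2 gained 80699 ± 3156 in the edited line and 64651 ± 2724 in wild type. The edited line thus started higher, gained more normalized counts and ended higher, while its ratio of treated to untreated was smaller.

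**Figure D3:**
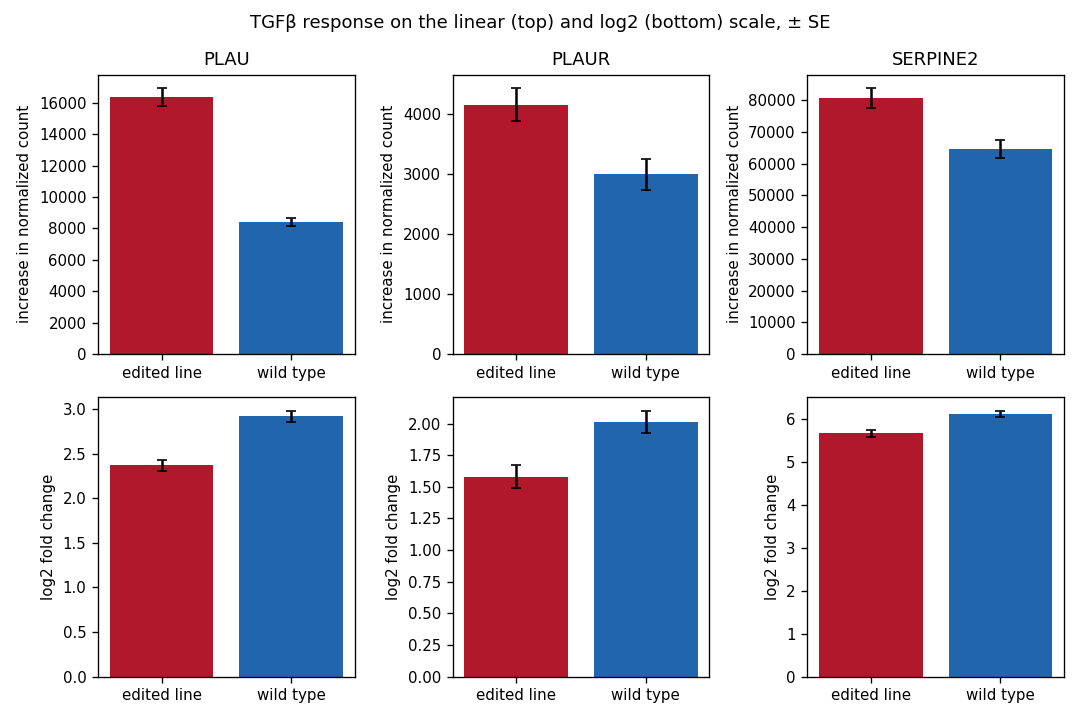
Response to TGFβ of PLAU, PLAUR and SERPINE2 in the edited line and wild type, as the gain in normalized count (top row) and as the fitted log2 fold change (bottom row), with bars for ± SE. In each gene the edited line has the taller bar in the top row and the shorter bar in the bottom row.

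Levels of different genes were compared per kilobase of the APPRIS principal transcript (GENCODE 29), a length chosen after the values were seen and known for 70.08% of tested genes. On this scale ANXA2 was at 241938 ± 14724 normalized counts per kb in treated edited, 125889 ± 3201 in untreated edited, 254253 ± 28461 in treated wild type and 152481 ± 6711 in untreated wild type libraries (SD, n = 3 each). By this length 6 of 14335 genes stood above it in treated edited libraries and 11 in untreated wild type, and by all annotated exons joined 47 and 79 of 16522 did in the same groups. S100A10 was at 67867 ± 5930 per kb in treated edited, 34529 ± 939 in untreated edited, 72282 ± 11052 in treated wild type and 40200 ± 1819 in untreated wild type libraries. With joined exons, S100A10 stood above ANXA2 instead (52869 ± 4619 and 45953 ± 2797 per kb in treated edited libraries), so the order of these genes is not settled by these data.

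SERPINE2 changed its rank most among the members. It was at 37507 ± 2490 normalized counts per kb in treated edited, 742 ± 25.0 in untreated edited, 29886 ± 2149 in treated wild type and 432 ± 38.6 in untreated wild type libraries. Of the 14335 genes, 0.914% stood above it in treated edited and 43.0% in untreated edited libraries, and 1.10% in treated wild type and 54.2% in untreated wild type. PLAU, per kb, stood at 8755 ± 412 in treated edited, 1692 ± 52.7 in untreated edited, 4173 ± 180 in treated wild type and 551 ± 31.8 in untreated wild type. Its receptor PLAUR was at 4037 ± 276 per kb in treated edited, 1351 ± 134 in untreated edited, 2568 ± 289 in treated wild type and 633 ± 25.6 in untreated wild type. PLAUR thus stood above PLAU in untreated wild type by this length, but below it with joined exons (220.0 ± 8.88 for PLAUR and 433 ± 25.0 for PLAU per kb). PLAT stayed the lowest of the 6 at 211 ± 30.9 per kb in treated edited, 6.40 ± 0.71 in untreated edited, 133 ± 11.3 in treated wild type and 7.60 ± 2.21 in untreated wild type. PLAU was thus the more abundant activator transcript in all 4 groups.

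Ratios of members within a library depend neither on length nor on scaling and were set against their mean in untreated wild type. The ratio of the inhibitor SERPINE2 to the activator PLAU changed by 2.45 ± 0.03 on the log2 scale in treated edited libraries, -0.84 ± 0.01 in untreated edited libraries and 3.19 ± 0.05 in treated wild type (SD, n = 3 each). SERPINE2 was thus lower relative to PLAU in the edited line than in wild type in both conditions, with no overlap between libraries. The ratio of PLAU to its receptor PLAUR was above that of untreated wild type by 1.32 ± 0.04 in treated edited, 0.53 ± 0.19 in untreated edited and 0.91 ± 0.10 in treated wild type libraries. For PLAU over PLAT the change was -0.84 ± 0.27 in treated edited, 1.83 ± 0.20 in untreated edited and -1.24 ± 0.08 in treated wild type libraries. The ratio of ANXA2 to S100A10 moved least, by -0.09 ± 0.04 in treated edited, -0.06 ± 0.03 in untreated edited and -0.10 ± 0.06 in treated wild type libraries. All 9 of these libraries lay below the 3 of untreated wild type. No test was made on the ratios.

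**Figure D4:**
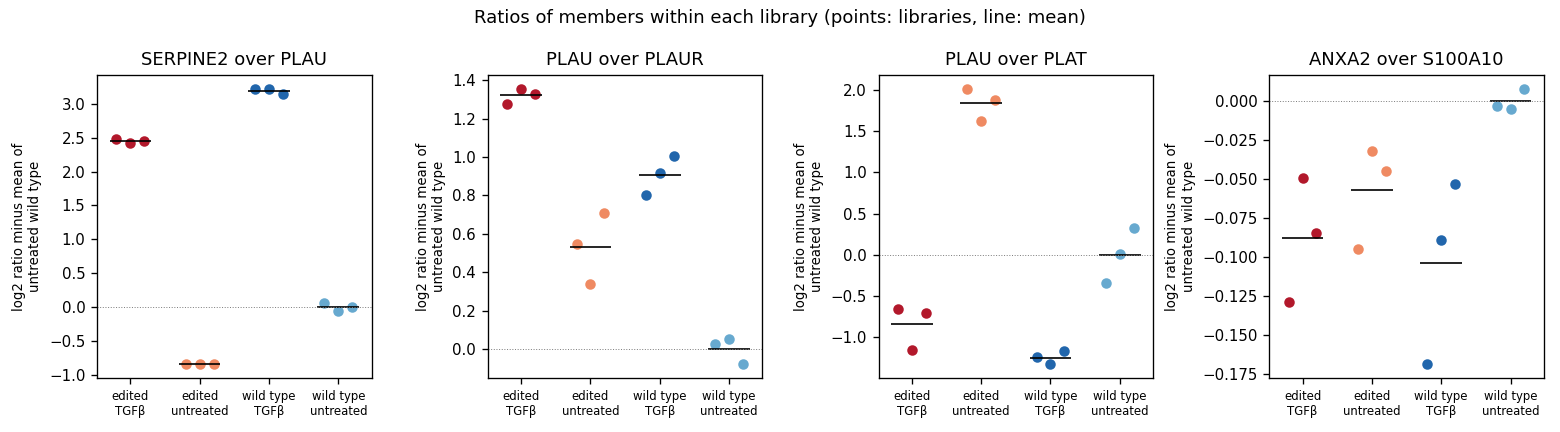
Log2 ratios of paired members in each library, minus the mean of untreated wild type, by group. Points are libraries and lines are means. SERPINE2 over PLAU lies above 0 with TGFβ and below 0 in the untreated edited line, while ANXA2 over S100A10 stays within 0.169 of 0.

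The other genes of the system moved in several directions, given as log2 fold changes ± SE unless they are named as normalized counts. The zymogen gene PLG was at 0 to 5.38 normalized counts in the 12 libraries and was not tested. Apart from ANXA2 and S100A10, the tested genes on the list drawn up here of plasminogen-binding surface proteins fell with TGFβ in both lines (3 of 3). They were ENO1, PLGRKT and KRT8, the last also counted among the epithelial markers. The KRT8 call in wild type lay close to the threshold (adjusted p = 0.0457). Of all 20456 tested genes, 6283 were called lower in the edited line and 6327 in wild type. The enolase ENO1 had a log2 fold change of -0.66 ± 0.09 in the edited line and -0.40 ± 0.09 in wild type. PLGRKT, a membrane plasminogen receptor, had -0.45 ± 0.08 in the edited line and -0.36 ± 0.08 in wild type. The tested fibrinogen chains FGA, FGB and FGG, precursors of the fibrin that plasmin dissolves, fell in both lines as well (3 of 3). FGA averaged 9380 ± 866 normalized counts in treated edited, 66621 ± 2608 in untreated edited, 7881 ± 611 in treated wild type and 75890 ± 1893 in untreated wild type libraries (SD, n = 3 each). The log2 response of FGA was less negative in the edited line, by 0.44 ± 0.10 (adjusted p = 0.00804).

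Among 9 other inhibitors of plasmin or its activators, 3 rose and 4 fell with TGFβ in the edited line, and 2 rose and 5 fell in wild type. Their median log2 fold change was -0.24 in the edited line and -0.31 in wild type, against 0.03 and 0.02 over all tested genes. SERPINA5, the protein C inhibitor, which also blocks urokinase, rose by 3.09 ± 0.22 in the edited line and 1.72 ± 0.22 in wild type. Its normalized counts were low, at 296 ± 18.5 in treated edited, 34.1 ± 4.46 in untreated edited, 232 ± 21.2 in treated wild type and 72.1 ± 25.9 in untreated wild type libraries. SERPINI1, or neuroserpin, an inhibitor of tissue activator, fell with TGFβ in both lines, by log2 fold changes of -0.57 ± 0.12 in the edited line and -1.19 ± 0.12 in wild type, and these responses differed (0.62 ± 0.17, adjusted p = 0.0189). It was lower in the edited line, with log2 fold changes of -1.03 ± 0.12 untreated and -0.41 ± 0.12 with TGFβ. SERPINB8, a clade B serpin, was higher in the edited line by 1.03 ± 0.09 untreated and 0.44 ± 0.09 with TGFβ.

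Of 5 tested proteases that act on plasminogen or pro-urokinase, CTSB alone rose with TGFβ in both lines. CTSB, which encodes cathepsin B, rose by 0.72 ± 0.07 in the edited line and 0.67 ± 0.07 in wild type, and was higher in the edited line by 0.31 ± 0.07 untreated and 0.36 ± 0.07 with TGFβ. Of 9 genes that clear or anchor the system, 4 rose and 2 fell in the edited line, and 6 rose and 2 fell in wild type. MRC2, the collagen receptor uPARAP that partners PLAUR, had 15676 ± 562 normalized counts in treated edited, 1308 ± 64.3 in untreated edited, 15202 ± 575 in treated wild type and 2431 ± 12.3 in untreated wild type libraries. The MRC2 response exceeded that of wild type by 0.94 ± 0.08 on the log2 scale in the edited line (adjusted p = 2.88e-06), opposite in sign to those of PLAU and PLAUR. LRP1, the endocytic receptor for serpin and protease complexes, rose by 1.47 ± 0.18 in either line. VTN, or vitronectin, a matrix ligand of PLAUR, fell, with a log2 fold change of -4.59 ± 0.11 in the edited line and -4.47 ± 0.11 in wild type.

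Families of the members were mixed. Of 12 other annexins, 3 rose and 5 fell with TGFβ in the edited line and 3 rose and 6 fell in wild type. ANXA13 fell, with a log2 fold change of -2.95 ± 0.12 in the edited line and -4.16 ± 0.12 in wild type, while ANXA8 rose by 2.70 ± 0.12 in the edited line and 1.78 ± 0.12 in wild type. Of 14 tested S100 genes other than S100A10, 4 rose and 5 fell in the edited line and 7 rose and 4 fell in wild type. S100A9, a calprotectin subunit, was higher in the edited line by 2.78 ± 0.20 untreated and 2.41 ± 0.20 with TGFβ. Of 6 tested Ly6/uPAR domain genes other than PLAUR, 4 rose and 0 fell in the edited line and 4 rose and 1 fell in wild type, LY6E with a log2 fold change of -0.30 ± 0.11. CD59, a complement inhibitor, rose by 2.85 ± 0.07 in the edited line and 2.54 ± 0.07 in wild type. SERPINB6 and SERPINB8 are clade B serpins counted above among the inhibitors. Of the other 6 tested clade B genes, 2 rose and 2 fell in the edited line and 3 rose and 2 fell in wild type.

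**Figure D5:**
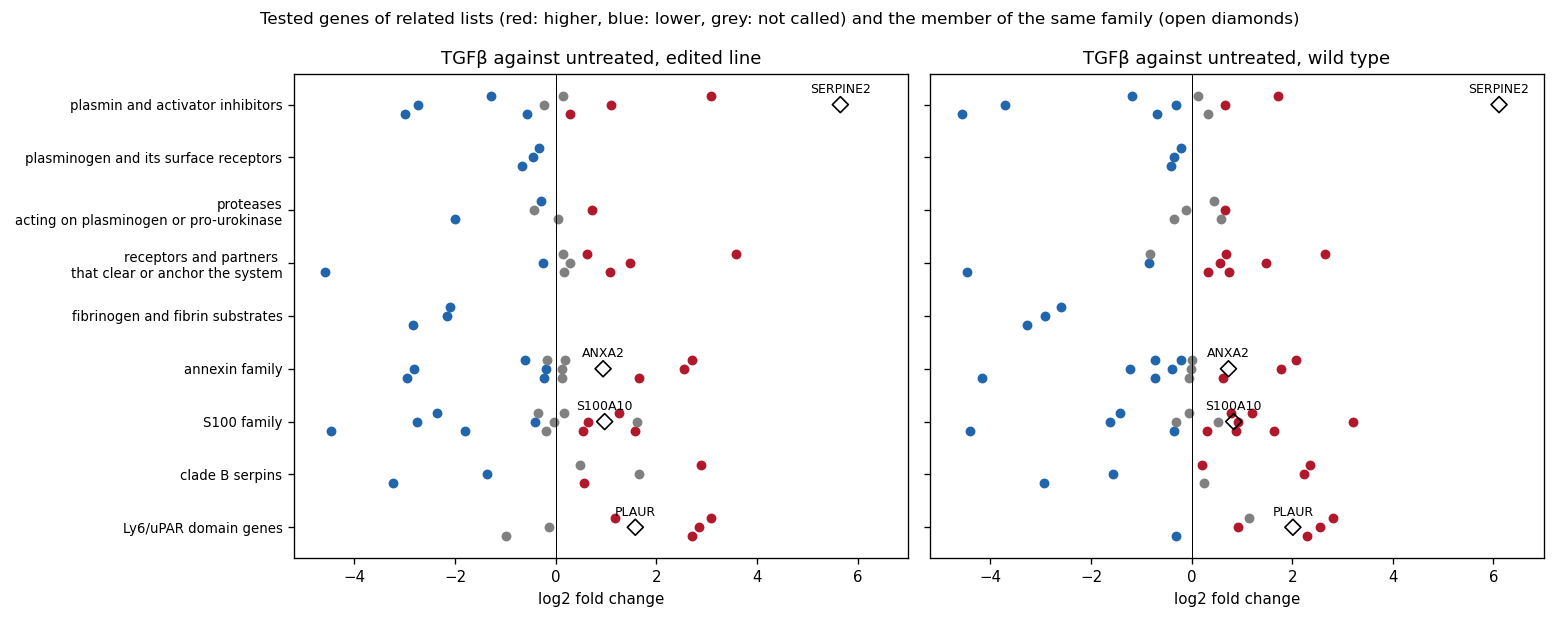
Log2 fold changes with TGFβ in the edited line (left) and wild type (right) for the tested genes of 9 related lists, 1 row per list. Points are genes, red and blue for those called higher and lower and grey for those not called, and open diamonds mark SERPINE2, ANXA2, S100A10 and PLAUR beside their families. SERPINE2 lies to the right of all other genes drawn in either panel.

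All 5 epithelial markers fell with TGFβ in both lines. The alveolar type 2 markers, of which ABCA3 and LAMP3 were tested, summed to 2069.6 to 2359 normalized counts in treated edited, 1369 to 1569 in untreated edited, 1763 to 1919.7 in treated wild type and 706 to 785 in untreated wild type libraries. ABCA3 rose by 1.34 ± 0.08 in the edited line and 1.49 ± 0.08 in wild type on the log2 scale. LAMP3 fell by 0.95 ± 0.11 in the edited line and rose by 0.76 ± 0.11 in wild type. All 5 tested fibroblast markers rose in both lines, with a summed normalized count of 1769 to 2110 in treated edited, 180.2 to 259 in untreated edited, 1238 to 1450 in treated wild type and 147 to 185 in untreated wild type libraries, and DCN averaged under 10 in every group. Their part in the members' responses was not tested. Endothelial markers summed to at most 197 and leukocyte markers to at most 401 in any library. PTPRC, the common leukocyte antigen, averaged under 10 in 3 of the 4 groups, and KDR and ERG, which mark endothelium, in all 4. Other such markers were above that level. PECAM1, an endothelial and leukocyte adhesion gene, averaged 5.84 ± 3.49 normalized counts in treated edited, 137 ± 25.3 in untreated edited, 1.76 ± 1.69 in treated wild type and 104 ± 10.5 in untreated wild type libraries, and it fell with TGFβ in both lines. TEK, an endothelial receptor, averaged 31.7 ± 13.9 in treated edited, 0.69 ± 1.19 in untreated edited and 26.5 ± 14.02 in treated wild type libraries, was at 0 in all 3 of untreated wild type, and rose in both lines. ITGAM, a myeloid integrin, averaged 224 ± 34.7 in treated edited, 202 ± 23.4 in untreated edited, 207 ± 39.4 in treated wild type and 299 ± 38.2 in untreated wild type libraries.

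The genes whose log2 values followed each member most closely over the 12 libraries are given as a description, since the libraries fall into 4 groups and these correlations mainly restate the group means. They were drawn from 13563 tested genes with a mean of at least 100. PLAU was closest to NTRK3, ITGA3 and NEFL (Pearson r = 0.998, 0.997 and 0.996). PLAUR was closest to NEFL, FHL2 and ITGA3 (r = 0.996, 0.995 and 0.994), so NEFL and ITGA3 stood by both the ligand and its receptor. GALNT1 and NRG1 were among the closest to PLAT (r = 0.996 and 0.995). TGFBI and LTBP3 were among the closest to SERPINE2 (r = 0.999 each). ANXA2 was closest to ACTB, ARPC1B and FAM213A (r = 0.997, 0.996 and 0.996), and S100A10 to ACTB, SEPW1 and ARPC1B (r = 0.998, 0.997 and 0.997).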

How the data were processed

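RNA-seq of 12 A549 libraries was deposited by the authors as normalized counts per gene (a signal). The submitters' processing notes name DESeq2, featureCounts, HISAT2 and StringTie, and GRCh38.p14. Their versions and roles and the strand setting were not given in the sources used, so overlapping and near-identical genes are uncertain. Every library's values stepped by a constant, and dividing by it gave whole reads for 100% of values (tolerance 0.01). In every library the inverse of that constant matched DESeq2's median-of-ratios size factor, computed from the recovered reads of all genes. For replicate 1 of untreated wild type both were 1.00313. The deposited values thus equal reads divided by such factors.

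Groups came from the labels. Genes reaching 10 in 3 or more libraries were fitted as log2(value + 1) with limma 3.58.1 (trend, R 4.3.3), with 4 group means and 5 two-sided comparisons, Benjamini-Hochberg adjusted over 20456 genes (threshold 0.05). The procedure was tested on simulated data. edgeR 4.0.16 called 2564 genes for the edited line with TGFβ, against 2394 in limma; DESeq2 1.42.0 was also run. Other alternatives covered pseudocount, filter, scaling, a replicate block, compared groups alone and single libraries left out.

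Members and lists were chosen with earlier results of these data known. Named genes were all members, SNAI1, up to 3 called genes per list and comparison with the largest absolute change (mean of at least 100), and the 3 genes closest to each member. Not all genes so named are described, and some of those closest to PLAT and SERPINE2 are not reported here.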

Additional observations from a re-analysis of the deposited data

Results flagged for a closer look

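The response to TGFβ differed between the lines, by the test of that difference in limma, for 3 members, each with a smaller log2 response in the edited line. The difference was -0.55 for PLAU, -0.43 for PLAUR and -0.45 for SERPINE2 on the log2 scale. For each of these genes the edited line gained more normalized counts than wild type.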

How the results depend on the processing

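Each of 30 member results was recomputed under up to 25 alternatives, 744 values in all: 712 kept their direction and side of the threshold, 13 lost and 17 gained a call, and 2 changed sign, neither of them called. The sign changes were in the edited line against wild type with TGFβ without replicate 1 of treated wild type (ANXA2 0.0126, S100A10 0.0292; range over single libraries left out -0.149 to 0.0126 and -0.191 to 0.0292). The responses to TGFβ of all 6 members in both lines, and the differences between the lines for PLAU and PLAUR in both conditions, were called under every alternative. The count of genes called for the edited line against wild type with TGFβ, 2394, became 1183 with the compared groups alone, and 1386 to 3841 among the single libraries whose removal moved it by over 1.5 times (1439 without replicate 2 and 3841 without replicate 3 of treated wild type, 1386 without replicate 3 of the treated edited group). For the difference of responses the split was 2163 higher and 1232 lower, against 1732 and 1629 with equal library totals and 1759 and 1533 with quantile normalization, which moved the median log2 fold change of all genes for TGFβ in the edited line by -0.108. Pairing of same-numbered libraries was mixed, with correlations of their deviations from -0.019 to 0.439. These were over 0.1 in 4 of 12 pairs and best with their own number in 7 of 12, so partial pairing was not settled. A fit with the replicate block called 12920 genes for TGFβ in wild type, 13096 in the edited line, 7068 and 2987 for the edited line untreated and with TGFβ, and 3987 for the difference of responses, and it called S100A10 lower in the untreated edited line (adjusted p = 0.0316). The principal transcript as the length, with joined exons as its alternative, was chosen after the data were seen. At 13 reads in all, differences in SERPINB2 were not detectable at this depth.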
